A study of Homo sapiens with 17 samples.

Results

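SREBF1, SREBF2, SCAP, INSIG1, INSIG2, NPC1, STARD4 and MYLIP encode proteins that sense cholesterol, switch on the genes for making it, or move it into and through the cell. They were taken by symbol from a table of transcript levels, where they were 8 of 25548 gene symbols. Of these genes, 7 had a mean level of at least 1 FPKM (sequenced fragments divided by gene length and by the library's mapped total) and were tested, and MYLIP lay under that filter.

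The levels came from poly(A) RNA sequencing of Jurkat cells, an established human line derived from a T cell acute lymphoblastic leukaemia. The cells were exposed to ILT3.Fc, a fusion of the ectodomain of ILT3 (LILRB4), an inhibitory receptor of immune cells, to an antibody Fc fragment, and the stated aim was to find the regulator behind the response. There were 17 libraries in 9 groups, given 0, 12.5 or 25 µg/ml ILT3.Fc for 6, 12 or 24 h, all in RPMI-1640 with fetal bovine serum. The untreated 12 h group held 1 library and the other 8 groups held 2 each. Untreated cells are described only as given 0 µg/ml, so an Fc protein without ILT3 was not among the groups analysed here, and all groups come from a single cell line. Serum was present throughout and supplies lipoprotein cholesterol.

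SREBP-1 and SREBP-2, made from SREBF1 and SREBF2, are transcription factors that begin as membrane proteins of the endoplasmic reticulum. When sterol is scarce, the escort protein SCAP carries them to the Golgi, where proteases release the active part, which binds sterol regulatory elements beside genes of cholesterol and fatty acid synthesis and the LDL receptor. When sterol is plentiful, INSIG1 and INSIG2 hold SCAP back. INSIG1 and SREBF2 are themselves SREBP targets, so the pathway feeds back on its own control genes. NPC1 exports cholesterol from late endosomes and lysosomes after lipoprotein uptake, STARD4 carries sterol between membranes through the cytosol, and MYLIP, also called IDOL, is a ubiquitin ligase that marks the LDL receptor for breakdown.

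Start regions are shown for the genes whose levels moved most closely together over the libraries (SREBF2, INSIG1 and STARD4) and for INSIG2, whose levels did not follow them. They are RefSeq sequences of build GRCh38.p14, each running from 250 bases before the transcription start to 50 after it, and all 8 genes had at least 1 in the RefSeq table. Capitals mark motifs found on either strand: the sterol regulatory element TCACCCCAC, the CCAAT letters of the NF-Y box, the E-box CACGTG and the GC box GGGCGG. The regions are chr22:41832855-41833154 on the plus strand for SREBF2, chr7:155297628-155297927 on the plus strand for INSIG1, chr5:111512486-111512785 on the minus strand for STARD4, and chr2:118088221-118088520 on the plus strand for the first of the INSIG2 starts.
SREBF2: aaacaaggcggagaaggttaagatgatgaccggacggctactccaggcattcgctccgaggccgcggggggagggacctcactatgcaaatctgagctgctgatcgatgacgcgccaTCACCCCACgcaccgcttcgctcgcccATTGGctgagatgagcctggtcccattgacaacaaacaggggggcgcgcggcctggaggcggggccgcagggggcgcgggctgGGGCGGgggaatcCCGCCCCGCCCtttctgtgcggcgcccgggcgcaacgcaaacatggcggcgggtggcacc
INSIG1: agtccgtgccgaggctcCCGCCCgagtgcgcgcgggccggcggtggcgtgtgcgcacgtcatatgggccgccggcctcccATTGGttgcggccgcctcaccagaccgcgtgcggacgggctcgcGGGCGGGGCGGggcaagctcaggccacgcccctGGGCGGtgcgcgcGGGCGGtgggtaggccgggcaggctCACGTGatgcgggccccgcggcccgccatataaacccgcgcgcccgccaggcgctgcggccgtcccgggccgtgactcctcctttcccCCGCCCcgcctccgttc
STARD4: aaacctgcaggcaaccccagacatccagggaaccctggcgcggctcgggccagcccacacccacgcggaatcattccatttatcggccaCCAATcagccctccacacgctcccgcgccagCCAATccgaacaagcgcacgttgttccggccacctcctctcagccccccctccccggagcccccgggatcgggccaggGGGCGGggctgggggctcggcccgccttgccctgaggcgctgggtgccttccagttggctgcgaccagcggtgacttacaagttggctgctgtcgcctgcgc
INSIG2: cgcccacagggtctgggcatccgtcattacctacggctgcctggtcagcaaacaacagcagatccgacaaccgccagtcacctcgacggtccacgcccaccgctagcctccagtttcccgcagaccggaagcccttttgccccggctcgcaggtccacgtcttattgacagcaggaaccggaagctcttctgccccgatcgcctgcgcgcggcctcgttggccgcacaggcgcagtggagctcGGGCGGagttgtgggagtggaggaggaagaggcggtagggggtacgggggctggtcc
In the SREBF2 region the sterol regulatory element began 133 bases before the start, and an inverted NF-Y box began 106 bases before it. The element was present in 0.43% of the 35116 promoters in the table, and its looser form TCACNCCAC, which contains it, in 1.13%. No other gene of the 8 held either form in this window. CCAAT occurred in 34.6% of all promoters, and SREBF2 and INSIG1 had 1 each, STARD4 had 2 and MYLIP had 2. CACGTG occurred in 7.26%, among them INSIG1 and SCAP. GGGCGG occurred in 45.0%, and each of the 8 genes had at least 1, with 6 in the INSIG1 region, 2 in that of NPC1 and 1 in each INSIG2 start region. These matches describe letters only.

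The introns of SREBF2 and SREBF1 also hold the microRNA genes MIR33A and MIR33B, whose products lower cholesterol export proteins. Their main mature forms share the seed UGCAUUG, bases 2 to 8, shown in capitals.
miR-33a-5p (MIR33A, chromosome 22): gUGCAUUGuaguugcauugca
miR-33b-5p (MIR33B, chromosome 17): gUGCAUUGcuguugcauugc
Both microRNA rows were listed at 0 in all 17 libraries. The library method selects polyadenylated RNA and does not capture mature microRNAs, so these rows say nothing about them.

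The libraries carried the label's cell type: all 10 T cell line markers had a mean of at least 1 FPKM, with sums of 1629 to 1842 FPKM per library. Myeloid, NK, erythroid and epithelial markers reached a mean of 1 in 0 of 3 genes each, and B cell markers in 1 of 3 (CD79A). The FPKM values do not give read depth. Relative depth, estimated from the smallest values of 6620 weakly expressed genes, ranged from 0.671 to 1 of the deepest library. Sequencing lane followed time: lane 4 held every 24 h library and lane 5 every 12 h library, while the 6 h duplicates were split, with replicate 1 in lane 4 and replicate 2 in lane 5. Deviations from the mean library rose with GC content in replicate 2 at 25 µg/ml and 24 h (Spearman rho 0.57 across genes) and fell with it in the untreated replicate 2 at 24 h (rho -0.38). They fell with gene length in replicate 1 at 12.5 µg/ml and 6 h (rho -0.60).

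Because FPKM is scaled to length, the 8 genes can be ranked by level. INSIG1 had the highest mean over the 17 libraries (82.4 FPKM), followed by SREBF2 (48.8), SCAP (26.7), SREBF1 (21.5), STARD4 (17.1), INSIG2 (12.4), NPC1 (11.3) and MYLIP (0.331). Each gene was above the next in 17 of 17 libraries, except that INSIG2 exceeded NPC1 in 15 of 17. The order of the last tested pair was therefore not kept in every library, and that of the others was.

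**Figure D1:**
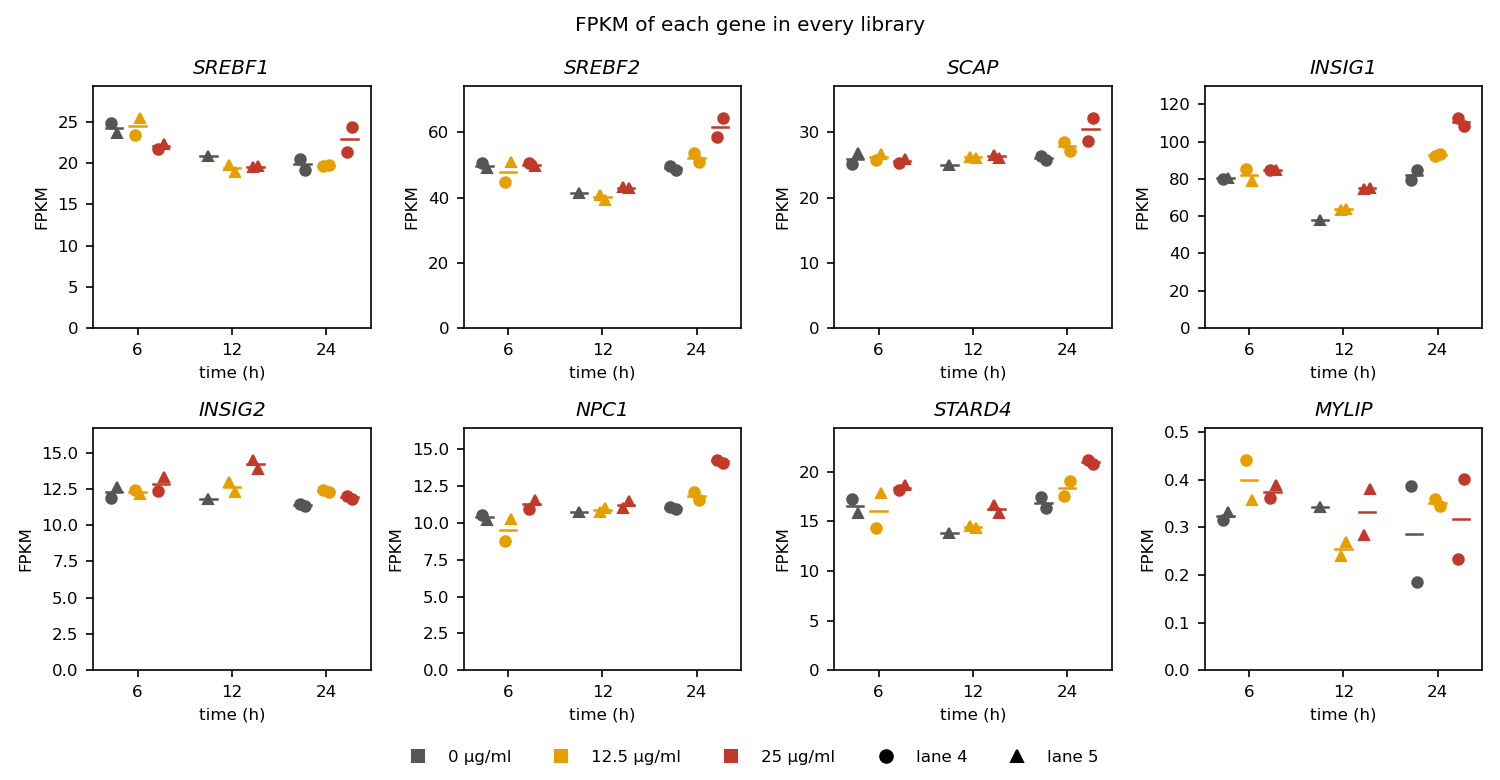
FPKM of each gene (vertical axes, from 0) against time in hours (horizontal axes) in every library, with points coloured by dose, shaped by sequencing lane, and group means as bars. INSIG1, NPC1 and STARD4 at 25 µg/ml lay above the untreated libraries at all 3 times, most widely at 24 h, where INSIG1 had 113 and 109 FPKM with 25 µg/ml and 79.3 and 84.5 FPKM untreated. Groups of 1 or 2 libraries often lie apart without an effect.

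Exposure to 25 µg/ml ILT3.Fc raised 4 of the 7 tested genes over the mean of the 3 times: INSIG1, STARD4, NPC1 and INSIG2. Of the 7, INSIG1 had the largest difference, 0.29 on the scale of log2(FPKM + 1), or 1.22-fold. None of the 7 passed the test as lower. The test was limma's moderated test with one mean per group, adjusted over 12015 genes by the Benjamini-Hochberg method and passed at an adjusted p under 0.05. Over all genes, 9.47% passed in this comparison, 5.47% as higher and the rest as lower, a share well below that of 4 of 7. Leaving out each library in turn left 1 to 5 of the 7 genes passing, INSIG1 among them every time. The 8 genes had been gathered with earlier results of these data known. Where groups are said below to lie apart or not to overlap, each holds only 1 or 2 libraries. Groups of that size often lie apart without an effect, and the share of all genes doing so was not counted. In bulk samples, fewer cells of a type and less RNA per cell cannot be told apart.

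INSIG1, the sterol-dependent anchor of SCAP, began the separation small. At 6 h it had 84.5 and 85.0 FPKM with 25 µg/ml, against 80.1 and 80.5 FPKM in untreated cells. At 12 h it had 74.6 and 75.3 FPKM with 25 µg/ml, against 57.8 FPKM in the single untreated library. At 24 h it had 113 and 109 FPKM with 25 µg/ml, against 79.3 and 84.5 FPKM in untreated cells. Treated libraries were above untreated ones at each time without overlap, and all 12 h libraries were lower than those at the other times. The difference over all times was 0.29 ± 0.027 (SE), with a 95% interval of 0.23 to 0.35 and an adjusted p of 0.000188 from limma. At single times it was 0.08 at 6 h (adjusted p = 0.592), 0.37 ± 0.052 (SE) at 12 h (adjusted p = 0.041) and 0.43 ± 0.043 (SE) at 24 h (adjusted p = 0.000298). Within lane 4, without the 12 h libraries, the mean difference was 0.25 (adjusted p = 0.0961), and within lane 5, without those of 24 h, it was 0.22 (adjusted p = 0.12).

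INSIG1 also stood between the other doses at 12.5 µg/ml for 12 and 24 h. It had 85.5 and 79.1 FPKM at 6 h, 63.5 and 64.1 FPKM at 12 h, and 92.3 and 93.3 FPKM at 24 h. At 12 and 24 h these libraries lay above the untreated and below the 25 µg/ml libraries, whereas at 6 h they spanned both. The difference of 12.5 from 0 µg/ml over all times was 0.12 (adjusted p = 0.121, limma). The difference of 25 from 12.5 µg/ml was 0.17 ± 0.025 (SE, adjusted p = 0.0185), which was lost within each lane (0.12 in lane 4 with adjusted p = 0.197, and 0.17 in lane 5 with adjusted p = 0.263). The 25 and 12.5 µg/ml differences from untreated cells share the untreated libraries.

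INSIG2, the other anchor of SCAP, had its widest gap at 12 h. Its 6 h levels were 12.4 and 13.3 FPKM with 25 µg/ml, against 11.9 and 12.7 FPKM in untreated cells. Those at 12 h were 14.5 and 13.9 FPKM with 25 µg/ml, against 11.8 FPKM in the untreated library. Those at 24 h were 12.0 and 11.8 FPKM with 25 µg/ml, against 11.5 and 11.3 FPKM in untreated cells. The groups overlapped at 6 h and were apart at 12 and 24 h. The difference over all times was 0.12 ± 0.031 (SE, adjusted p = 0.033, limma), but it was 0.25 at 12 h (adjusted p = 0.254) and 0.06 at 24 h (adjusted p = 0.453). Leaving out the single untreated 12 h library removes the 12 h comparison, and the mean of those at 6 and 24 h was 0.06. The call was lost in 16 of 33 alternatives.

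The 2 INSIG genes were set against each other by their ratio. The INSIG1 to INSIG2 ratio of FPKM was 6.82 and 6.37 with 25 µg/ml at 6 h, against 6.75 and 6.36 in untreated cells. By 12 h it was 5.14 and 5.44 with 25 µg/ml, against 4.90 in the untreated library. By 24 h it was 9.38 and 9.21 with 25 µg/ml, against 6.91 and 7.47 in untreated cells. The ratios overlapped at 6 h and were higher with 25 µg/ml at 12 and 24 h. The log2 ratio of (FPKM + 1) was higher by 0.17 with 25 µg/ml over all times (two-sided exact permutation of dose labels within each time, p = 0.0278, adjusted over 2 ratios 0.0278). Within lane 4 it was higher by 0.20 and within lane 5 by 0.06, in designs too small to pass (both exact p = 0.167).

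SREBF2, the factor most tied to cholesterol genes, was higher at 24 h. After 6 h it had 50.5 and 49.8 FPKM with 25 µg/ml, against 50.6 and 49.1 FPKM in untreated cells. After 12 h it had 43.2 and 42.8 FPKM with 25 µg/ml, against 41.4 FPKM in the untreated library. After 24 h it had 58.6 and 64.6 FPKM with 25 µg/ml, against 49.7 and 48.4 FPKM in untreated cells. The groups overlapped at 6 h and were apart at 12 and 24 h, with the highest value in the library whose levels rose with GC content. The 24 h difference was 0.32 ± 0.059 (SE, 1.25-fold, adjusted p = 0.00617, limma), and over all times it was 0.13 (95% interval 0.05 to 0.21, adjusted p = 0.0521). After each library was corrected for GC content and gene length, the 24 h difference was 0.20 (adjusted p = 0.00973) and that over all times 0.09 (adjusted p = 0.0389). At 12.5 µg/ml SREBF2 had 44.9 and 50.9 FPKM at 6 h, 40.9 and 39.3 FPKM at 12 h, and 53.6 and 51.0 FPKM at 24 h. The difference of 12.5 from 0 µg/ml over all times was -0.0030 (adjusted p = 0.984).

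SREBF1, the factor more tied to fatty acid genes, had opposite signs early and late. The 6 h levels were 21.8 and 22.3 FPKM with 25 µg/ml, against 24.9 and 23.6 FPKM in untreated cells. The 12 h levels were 19.6 and 19.6 FPKM with 25 µg/ml, against 20.9 FPKM in the untreated library. The 24 h levels were 21.4 and 24.4 FPKM with 25 µg/ml, against 20.5 and 19.2 FPKM in untreated cells. Treated libraries lay below untreated ones at 6 and 12 h and above them at 24 h, and no single time passed the test (log2 differences of -0.13, -0.09 and 0.19, with adjusted p of 0.492, 0.864 and 0.0537). Over all times the difference was -0.0080 (95% interval -0.09 to 0.08, adjusted p = 0.925). After the GC and length correction the 24 h difference was 0.02 (adjusted p = 0.779). The longest annotated SREBF1 transcript has 62.8% GC, the highest of the 8 genes.

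The SREBF1 to SREBF2 ratio of FPKM was lower with 25 µg/ml at every time. At 6 h it was 0.431 and 0.448 with 25 µg/ml, against 0.493 and 0.481 in untreated cells. At 12 h it was 0.453 and 0.459 with 25 µg/ml, against 0.504 in the untreated library. At 24 h it was 0.365 and 0.378 with 25 µg/ml, against 0.413 and 0.398 in untreated cells. The groups did not overlap at any time, and both groups were lowest at 24 h. The log2 ratio was lower by 0.14 on average (difference of -0.14, two-sided exact permutation within time, p = 0.00926, the smallest that 108 arrangements allow, adjusted over 2 ratios 0.0185). Within lane 4 the difference was -0.16 and within lane 5 -0.12, in designs too small to pass (both exact p = 0.167). At 12.5 µg/ml the ratio was 0.523 and 0.502 at 6 h, 0.484 and 0.482 at 12 h, and 0.366 and 0.389 at 24 h, which lay above untreated cells at 6 h and below them at the later times.

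**Figure D2:**
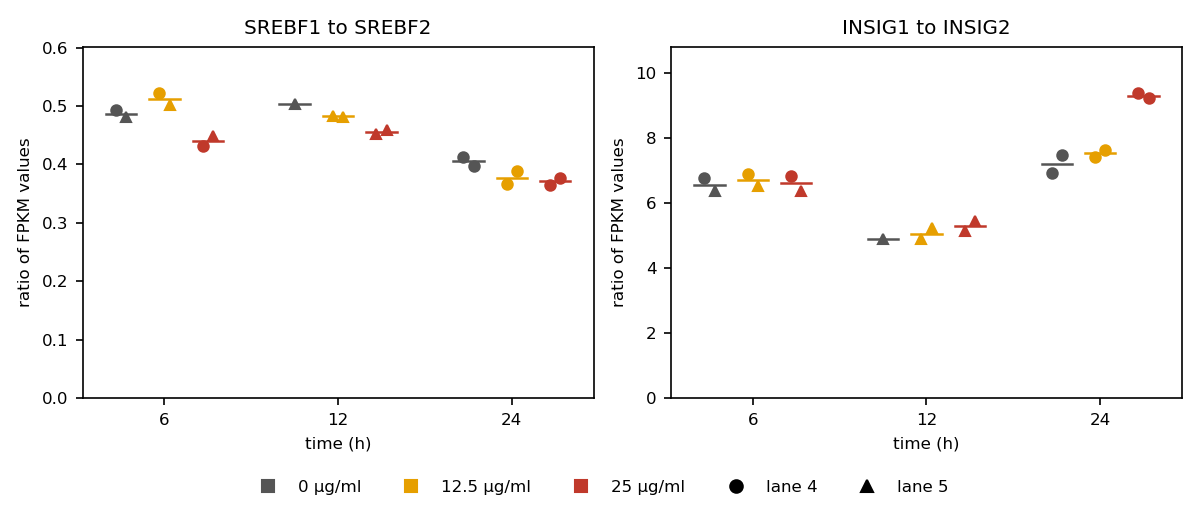
FPKM of SREBF1 divided by that of SREBF2 (left) and of INSIG1 divided by that of INSIG2 (right) against time in hours, with each library as a point, coloured by dose and shaped by lane, and group means as bars. With 25 µg/ml the SREBF1 to SREBF2 ratio was below that of untreated libraries at all 3 times, and the INSIG1 to INSIG2 ratio was highest at 24 h, at 9.38 and 9.21.

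SCAP, the escort of both factors, was close to its untreated level before 24 h. It had 25.3 and 25.9 FPKM with 25 µg/ml at 6 h, against 25.1 and 26.8 FPKM in untreated cells. After 12 h there were 26.5 and 26.1 FPKM with 25 µg/ml, against 25.0 FPKM in the untreated library. After 24 h there were 28.6 and 32.3 FPKM with 25 µg/ml, against 26.4 and 25.8 FPKM in untreated cells. The groups overlapped at 6 h and were apart later, and the library with 32.3 FPKM was the one whose levels rose with GC content. The 24 h difference passed the test at 0.21 ± 0.054 (SE, adjusted p = 0.0234, limma). It was 0.05 (adjusted p = 0.413) after the GC and length correction and 0.13 (adjusted p = 0.18) without that library. The longest annotated SCAP transcript has 62.3% GC. Over all times the difference was 0.09 (adjusted p = 0.126).

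NPC1, the late endosomal and lysosomal cholesterol exporter, had its widest gap at 24 h. At 6 h it had 10.9 and 11.6 FPKM with 25 µg/ml, against 10.6 and 10.2 FPKM in untreated cells. At 12 h it had 10.997 and 11.473 FPKM with 25 µg/ml, against 10.727 FPKM in the untreated library. At 24 h it had 14.30 and 14.05 FPKM with 25 µg/ml, against 11.09 and 10.97 FPKM in untreated cells. The treated libraries were the higher ones at all times, by a wide margin only at 24 h. The difference was 0.17 ± 0.039 (SE, 1.12-fold, adjusted p = 0.0231, limma) over all times and 0.34 ± 0.062 (SE, 1.26-fold, adjusted p = 0.00623) at 24 h. Without the 24 h libraries it was 0.08 (adjusted p = 0.57). At 12.5 µg/ml NPC1 had 8.79 and 10.3 FPKM at 6 h, 10.75 and 10.99 FPKM at 12 h, and 12.1 and 11.6 FPKM at 24 h. The lowest value, 8.79 FPKM, came from the library whose levels fell with gene length.

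STARD4, the cytosolic sterol carrier, was higher in every library given 25 µg/ml than in the untreated libraries of the same time. Levels at 6 h were 18.2 and 18.6 FPKM with 25 µg/ml, against 17.3 and 15.8 FPKM in untreated cells. Levels at 12 h were 16.7 and 15.9 FPKM with 25 µg/ml, against 13.8 FPKM in the untreated library. Levels at 24 h were 21.2 and 20.8 FPKM with 25 µg/ml, against 17.5 and 16.3 FPKM in untreated cells. The groups did not overlap at any time. The difference was 0.22 ± 0.052 (SE, 1.17-fold, adjusted p = 0.0247, limma) over all times, 0.15 at 6 h (adjusted p = 0.603), 0.22 at 12 h (adjusted p = 0.599) and 0.30 ± 0.084 (SE, adjusted p = 0.0341) at 24 h. At 12.5 µg/ml STARD4 had 14.3 and 17.8 FPKM at 6 h, 14.6 and 14.3 FPKM at 12 h, and 17.6 and 19.1 FPKM at 24 h. The value of 14.3 FPKM at 6 h came from the same library as the lowest NPC1 value. After the GC and length correction the difference of 12.5 from 0 µg/ml over all times was -0.0068 for NPC1 and 0.06 for STARD4 (adjusted p of 0.939 and 0.518), against -0.0014 and 0.04 before it.

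MYLIP, the ligase for the LDL receptor, was the least abundant of the 8. With 25 µg/ml it had 0.362 and 0.388 FPKM at 6 h, against 0.316 and 0.332 FPKM in untreated cells. Its 12 h levels were 0.283 and 0.380 FPKM with 25 µg/ml, against 0.343 FPKM in the untreated library. Its 24 h levels were 0.234 and 0.401 FPKM with 25 µg/ml, against 0.387 and 0.184 FPKM in untreated cells. Treated libraries were higher at 6 h, the groups overlapped at 12 and 24 h, and the 24 h duplicates of both groups differed more than the groups did. The exact permutation test within time gave p = 0.565 for 25 against 0 µg/ml. No change of MYLIP was detectable at this level.

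Because lane followed time, the differences of 25 from 0 µg/ml were also taken within each lane, lane 4 holding no 12 h and lane 5 no 24 h libraries. STARD4 had 0.19 in lane 4 and 0.22 in lane 5 (adjusted p of 0.198 and 0.147). NPC1 had 0.19 and 0.11 (adjusted p of 0.159 and 0.237), and INSIG2 had 0.06 and 0.16 (adjusted p of 0.48 and 0.196). SREBF2 had 0.16 in lane 4 and 0.04 in lane 5 (adjusted p of 0.217 and 0.494). With INSIG1, 0 of the 7 genes passed within either lane, where 0.35% of all genes passed in lane 4 and 0.0666% in lane 5, but the 4 raised genes were higher in both. With lane as a covariate, 4 genes passed, where 9.80% of all genes passed. Lane was the same for all doses at 12 and 24 h and balanced over them at 6 h. That covariate could therefore not change these differences, only their standard errors.

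**Figure D3:**
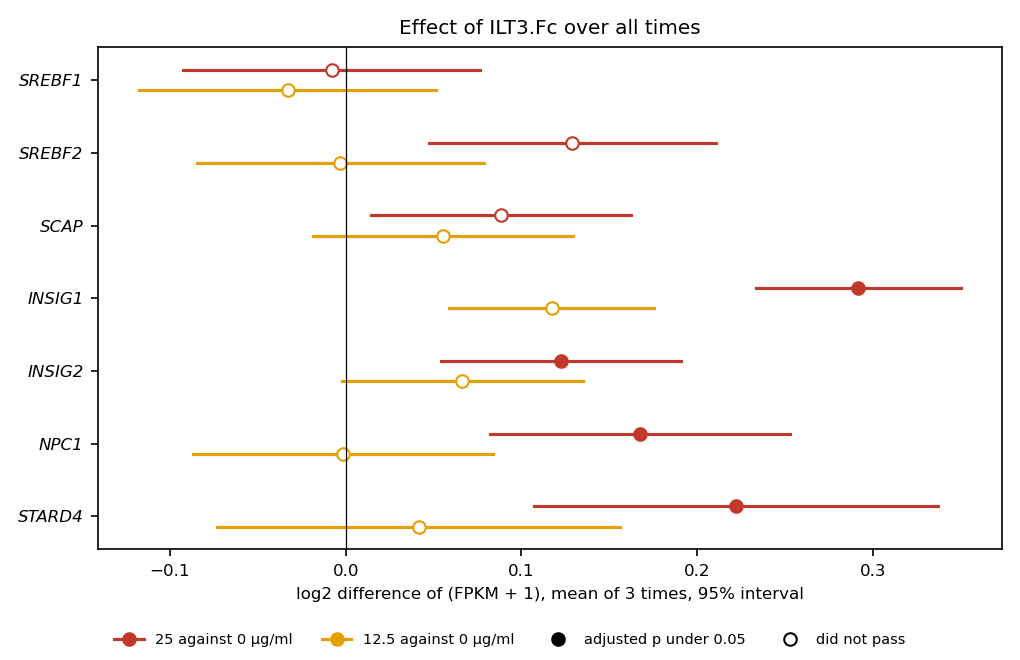
Difference from untreated cells in log2(FPKM + 1), averaged over 3 times (horizontal axis), for the 7 tested genes (vertical axis), with 95% intervals, in red for 25 µg/ml and orange for 12.5 µg/ml. Filled points had an adjusted p under 0.05: 4 genes at 25 µg/ml and 0 at 12.5 µg/ml, with the INSIG1 differences at 0.29 and 0.12.

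At 12.5 µg/ml 0 of the 7 genes passed against untreated cells over all times in limma, where 0.283% of all genes passed. In limma, where 1315 of the 12015 tested genes had an unadjusted p under 0.05, 1 of the 7 did, INSIG1. In the exact permutation test within time it had an unadjusted p of 0.0278, and the other genes had higher p. After the GC and length correction it passed at 0.11 (adjusted p = 0.027). Directly compared, 25 µg/ml passed as higher than 12.5 µg/ml for 1 of the 7 genes, INSIG1, where 0.283% of all genes passed. The differences for STARD4 (0.18, adjusted p = 0.197), NPC1 (0.17, adjusted p = 0.106) and SREBF2 (0.13, adjusted p = 0.193) did not pass.

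By time, 25 against 0 µg/ml passed for 0 of the 7 genes at 6 h, where 0.225% of all genes passed. None of the 7 had an unadjusted p under 0.05 in limma at 6 h, where 1239 of the 12015 tested genes did. The comparison passed for 1 gene at 12 h, INSIG1, where 0.0499% of all genes passed. It passed for 5 genes at 24 h, INSIG1, NPC1, SREBF2, STARD4 and SCAP, where 16.5% of all genes passed, 10.7% as higher and the rest as lower. The 12 h comparison rests on 1 untreated library, assumed in the fit to vary like the other groups. Without replicate 2 at 25 µg/ml and 24 h, the 24 h difference was 0.25 for SREBF2, 0.13 for SCAP and 0.31 for STARD4. Without the untreated replicate 2 at 24 h, it was 0.30, 0.20 and 0.25 for these genes and 0.33 for NPC1. Each of these fits leaves 1 library in a group. The libraries left out are the pair of 24 h libraries whose levels moved with GC content in opposite directions. Leaving out each library in turn gave 24 h differences of 0.25 to 0.39 for SREBF2 and 0.13 to 0.30 for SCAP. For STARD4 it gave 0.25 to 0.35 and for NPC1 0.32 to 0.35. After the GC and length correction 4 genes passed, where 19.3% of all genes passed. Within lane 4, which holds every 24 h library, 4 of the 5 passed and SCAP did not (adjusted p = 0.0997), where 5.84% of all genes passed.

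**Figure D4:**
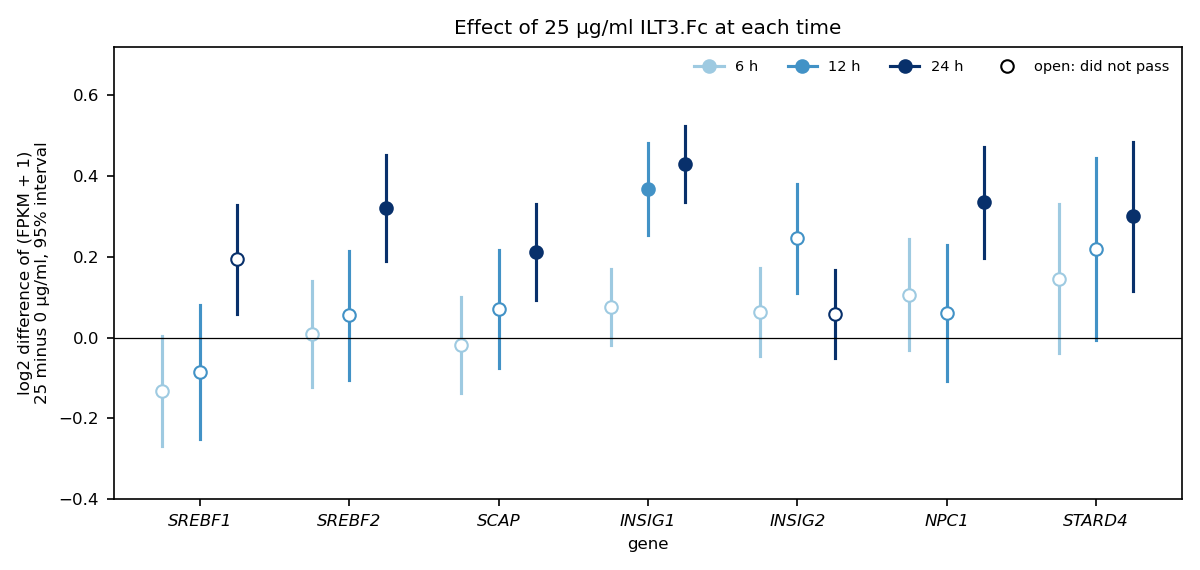
Difference of 25 from 0 µg/ml in log2(FPKM + 1) (vertical axis) for each tested gene (horizontal axis) at 6, 12 and 24 h, in light to dark blue, with 95% intervals and open points where the adjusted p was 0.05 or more. INSIG1 passed at 12 and 24 h (0.37 and 0.43), and NPC1, SREBF2, STARD4 and SCAP at 24 h.

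Whether the effect of 25 µg/ml differed between 24 and 6 h was tested directly. INSIG1 passed, with an effect larger by 0.35 ± 0.060 (SE, adjusted p = 0.0172, limma) at 24 h, as 1 of 7 genes where 3.30% of all genes passed. Within lane 4, which has 1 library of each 6 h group, its difference between times was 0.35 with an adjusted p of 0.326. SREBF1 (0.33, adjusted p = 0.0676) and SREBF2 (0.31, adjusted p = 0.0688) had differences of similar size that did not pass. Nor did NPC1 (0.23, adjusted p = 0.165), SCAP (0.23, adjusted p = 0.116) and STARD4 (0.15, adjusted p = 0.486) pass. INSIG2 had a difference of -0.0044 (adjusted p = 0.981). After the GC and length correction the difference was 0.33 for INSIG1, 0.10 for SREBF1, 0.16 for SREBF2 and 0.0087 for SCAP. It was 0.18 for NPC1, 0.27 for STARD4 and 0.09 for INSIG2. Of the 7 genes 1 passed after that correction, INSIG1 (adjusted p = 0.00507, limma), where 3.28% of all genes passed.

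Untreated cells were also compared over time. SREBF1 was lower at 24 h than at 6 h, with 20.5 and 19.2 FPKM at 24 h and 24.9 and 23.6 FPKM at 6 h. The groups did not overlap, and the difference was -0.28 ± 0.062 (SE, adjusted p = 0.0444, limma), 1 of 7 genes where 2.33% of all genes passed. This call was lost in 21 of 30 alternatives, among them lane as a covariate (-0.26, adjusted p = 0.0852) and lane 4 alone (-0.31, adjusted p = 0.317). The other 6 genes had adjusted p of 0.324 to 0.964. INSIG1 and SREBF2 were lower in every 12 h library than in any library of 6 or 24 h, at all 3 doses. This held within lane 5, which also held the replicate 2 libraries of 6 h, while 12 and 24 h shared no lane, so that time and lane cannot be told apart between those times.

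The levels of SREBF2, INSIG1 and STARD4 moved together over the 17 libraries, as a description across libraries that share times, doses and lanes. On log2(FPKM + 1), Pearson's r was 0.90 between SREBF2 and INSIG1, 0.89 between SREBF2 and STARD4 and 0.86 between INSIG1 and STARD4. INSIG2 went with none of them, with r of -0.39 to SREBF2, -0.21 to INSIG1 and -0.15 to STARD4. SCAP and NPC1 lay between, with r of 0.73 and 0.64 to SREBF2 and of 0.64 and 0.74 to STARD4. Their start regions hold no CCAAT, nor do those of INSIG2 and of SREBF1, which had r of 0.48 to SREBF2. MYLIP, not in these correlations, has 2, and a link between the motif and the levels was not tested. The most similar tested genes for INSIG1 were SQLE, IDI1 and FDFT1 (r of 0.97, 0.97 and 0.96), which encode cholesterol synthesis enzymes. For SREBF2 they included SCD, a fatty acid desaturase (0.95). For STARD4 they included SREBF2 and ACLY, which makes cytosolic acetyl-CoA (both 0.89). The other genes had neighbours outside the sterol lists: SLC19A1, WIZ and PDLIM1 for SREBF1 (0.94, 0.94 and 0.91), EDC4, ADRBK1 and DVL2 for SCAP (0.94, 0.94 and 0.93), ILDR2, SSH1 and FAM123B for NPC1 (0.93, 0.93 and 0.92), and MGAT4A, STAT5B and MINA for INSIG2 (0.84, 0.83 and 0.82).

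Lists of pathway genes beside the 8 place these values. Over all times, 25 against 0 µg/ml gave 14 of 21 tested cholesterol synthesis enzymes higher and 1 lower, where 5.47% of all genes were higher. Their median difference was 0.22, against 0.02 over all tested genes. HMGCS1, which makes HMG-CoA, had the smallest p of the list (0.66, adjusted p = 3e-07, limma), followed by the sterol oxidase MSMO1 (0.50, adjusted p = 5.9e-05) and FDFT1, which makes squalene (0.31, adjusted p = 0.000167). The 1 that fell was LBR (-0.15), a sterol reductase that also anchors chromatin to the nuclear lamina, chosen for mention after its value was seen. The medians of the 7 control genes and of the enzymes, and every gene behind them, are shown in the plot of sterol gene lists.

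Among genes that process SREBP or degrade proteins under sterol control, 2 of 17 were higher and 0 lower, with a median of 0.06, in a comparison where 9.47% of all genes passed and 5.47% passed as higher. That count is near the share over all genes. One of them was UBE2G2 (0.15, adjusted p = 0.0059, limma), a ubiquitin-conjugating enzyme of protein degradation at the endoplasmic reticulum. SYVN1, a ubiquitin ligase of the endoplasmic reticulum, did not pass (0.09, adjusted p = 0.0902). Among genes of sterol uptake, transport and storage, 4 of 21 were higher and 0 lower, with a median of 0.07, against the same 5.47% of all genes as higher. They included STARD3, a late endosomal sterol carrier (0.19, adjusted p = 0.0198, limma), and SOAT1, which esterifies cholesterol (0.13, adjusted p = 0.0227).

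The liver X receptor (LXR) list, whose factors are activated by oxysterols and induce MYLIP, had 1 of 8 genes higher and 0 lower, with a median of -0.0021, a count near the share over all genes. At 24 h, where 10.7% of all genes passed as higher, 4 of the 8 did, with a median of 0.21 against 0.04 over all genes. Of the fatty acid targets of SREBP, 3 of 11 were higher and 0 lower over all times, where 5.47% of all genes were higher, with a median of 0.04. They were ELOVL5 (0.08, adjusted p = 0.0262), LPIN1 (0.12, adjusted p = 0.03) and ACLY (0.09, adjusted p = 0.047). At 24 h, with 16.5% of all genes passing and 10.7% as higher, the lists had 18 of 21 synthesis enzymes higher and 1 lower, 5 of 17 processing genes higher and 1 lower, 5 of 21 uptake genes higher and 3 of 11 fatty acid genes higher. None of the list counts, the LXR list included, was repeated after the GC and length correction. At 24 h a treated and an untreated library moved with GC content in opposite directions.

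**Figure D5:**
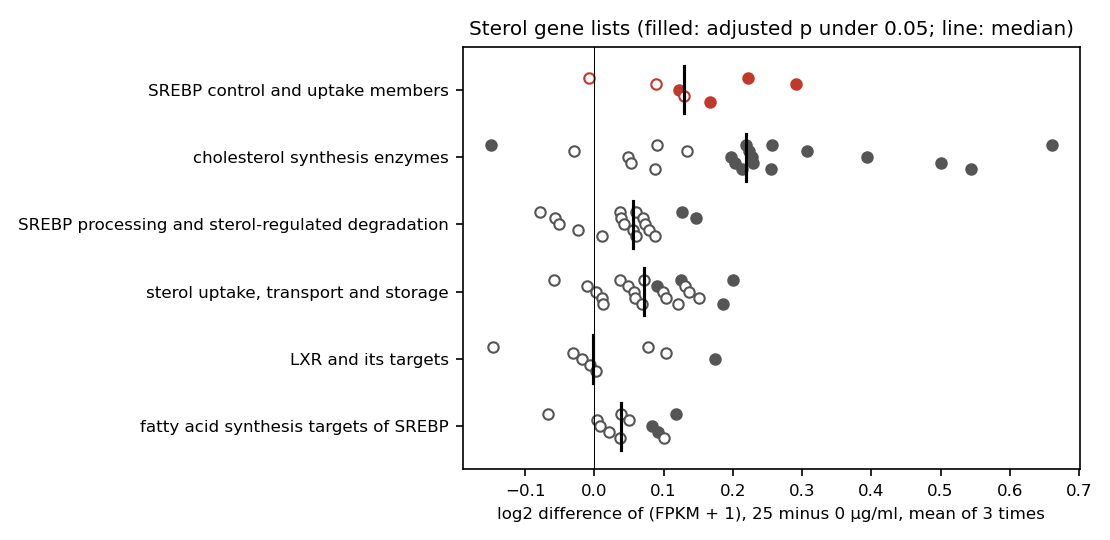
Difference of 25 from 0 µg/ml in log2(FPKM + 1), averaged over 3 times (horizontal axis), for each tested gene of the 7 control genes and of 5 pathway lists (rows), with filled points at an adjusted p under 0.05 and vertical lines at the medians. Of the pathway lists the cholesterol synthesis enzymes had the highest median, 0.22, and the LXR list the lowest, -0.0021.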

How the data were processed

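The data are transcript levels in 17 libraries of Jurkat cells. The authors deposited FPKM values, 1 column per library; TopHat2 2.1.0 is named per the submitters' processing notes, while the build, the annotation and the tool that computed FPKM were not given in the sources used here. Per the labels' protocols, RNA was extracted with the RNeasy Mini kit and made into TruSeq libraries after poly(A) selection. The table held 25593 lines for 25548 symbols; of 45 repeated lines the one with the highest mean was kept, and 5290 symbols were at 0 in every library. FPKM sums were 504363 to 557389 per library. Read counts were not recovered, so absolute depth is unknown. Relative depth is the most common ratio of the smallest values between libraries (tolerance 0.03 on the log2 scale), which 14.8% to 18.4% of the genes compared shared.

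The 12015 genes averaging 1 FPKM or more were tested on log2(FPKM + 1), a scale that understates the change of low genes. limma 3.58.1 in R 4.3.3 fitted 9 group means, with 8 residual and 3 prior degrees of freedom and a variance trend. Tests were two-sided, with Benjamini-Hochberg adjustment over the 12015 genes. An effect over all times averages those at 6, 12 and 24 h. Where the untreated 12 h library is left out, an effect against untreated cells averages those at 6 and 24 h. Single genes and ratios were also tested by exact permutation of dose labels within each time. The labels state that each sample was duplicated, and whether these came from separate cultures is not said. The p-values then reflect the spread between these libraries alone, which could be technical. The steps were tested on simulated data.

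The members, gene lists and tests were chosen with earlier results of these data known. The rule for naming genes took the 8 members, the 3 tested genes with the highest correlation to each, and up to 3 genes of each list with the smallest p. Some genes that the rule names are not reported here. GC content and length came from the longest GENCODE v29 transcript per symbol, matched for 10210 of 12015 genes (85%), and each library was corrected with loess curves (span 0.3). Promoters and microRNAs are RefSeq sequences on GRCh38.p14, matched by symbol, and no position in the deposited table was used. Alternatives changed the pseudocount (0.1), the filter, the scaling, the variance trend, the lane, the libraries fitted and the replicate block; the GC and length correction was added after seeing the data.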

Additional observations from a re-analysis of the deposited data

Results flagged for a closer look

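INSIG1 was flagged because the effect of 25 µg/ml ILT3.Fc, against untreated cells, differed between 24 and 6 h by a direct test in limma. Its log2 difference of 25 from 0 µg/ml was 0.35 larger at 24 h (SE 0.060, adjusted p = 0.0172), with effects of 0.43 at 24 h and 0.08 at 6 h. All 24 h libraries and 1 library of each 6 h group were in lane 4, where the difference between times was also 0.35 (adjusted p = 0.326), and it ranged from 0.31 to 0.40 over 30 alternatives, 9 of which ended the call.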

How the results depend on the processing

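Of 56 effects (7 genes in 8 comparisons), 13 passed, and none of these changed sign under any alternative. Of 1764 alternative values from limma, 126 lost and 28 gained a call, and the cause was not tested. Only the 13 effects that passed could lose a call, so the losses fell among their alternatives alone. Per effect, the losses ranged from 1 of 31 alternatives (INSIG1 at 24 h) to 21 of 30 (SREBF1 in untreated cells). INSIG1 at 12 h lost its call in 19 of 30. For 25 against 0 µg/ml over all times 4 genes passed; 0 passed in lane 4 alone and in lane 5 alone, 2 without the 12 h libraries, 1 without the 24 h libraries and 1 with a replicate block, and leaving out each library gave 1 to 5 (1 without the untreated replicate 2 at 24 h or replicate 2 at 25 µg/ml and 6 h, and 2 without the untreated replicate 2 at 6 h or either 25 µg/ml library at 12 h). For 12.5 against 0 µg/ml 0 passed; 1 did after the GC and length correction and 1 had an unadjusted p under 0.05 in the exact permutation test, and leaving out each library gave 0 to 1. For 25 against 12.5 µg/ml 1 passed, where 0.283% of all genes passed. With median centring 0 did (0.291% of all genes), as with only the groups compared (0.0916%) and with the replicate block (0.0499%). Without 12 h or 24 h libraries 0 did as well (0.01665% and 0.0333% of all genes). After the GC and length correction 2 did (1.58% of all genes). In the permutation test 4 had an unadjusted p under 0.05, and the share of all genes doing so was not counted. The INSIG1 difference was 0.12 in lane 4, 0.17 in lane 5 and 0.156 to 0.193 leaving out each library. For 12 h 1 passed; 0 did with median centring, no variance trend, lane as covariate, lane 5 alone, only the groups compared, without 6 h or 24 h libraries, and with the replicate block with or without the correction, and leaving out each library gave 0 to 1. For 24 h 5 passed; 3 did with no filter, without the 12 h libraries and with the replicate block, 0 with only the groups compared, and leaving out each library gave 1 to 6 (3 and 1 without the untreated replicates 1 and 2 at 24 h, and 2 without replicate 2 at 25 µg/ml and 24 h). For the difference between 24 and 6 h 1 passed; 0 did in lane 4, with only the groups compared, without the 12 h libraries and with the replicate block, and leaving out each library gave 0 to 4. For untreated 24 against 6 h 1 passed; 0 did with no filter, quantile normalization, no variance trend, lane as covariate, lane 4 alone, only the groups compared, without the 12 h libraries, and with the replicate block with or without the correction, and leaving out each library gave 0 to 1.

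The INSIG1 to INSIG2 difference of 0.17 and the SREBF1 to SREBF2 difference of -0.14 were 0.1955 and -0.1569 in lane 4, 0.0649 and -0.1196 in lane 5, 0.2472 and -0.1344 without 6 h, 0.1924 and -0.1351 without 12 h, 0.0680 and -0.1413 without 24 h libraries and 0.1564 and -0.1399 with the replicate block. None of these passed, and none could, since the smallest two-sided p that any of these designs allows is 0.0556. Leaving out each library gave 0.151 to 0.1924 and -0.146 to -0.1279. It ended the call of the INSIG1 to INSIG2 ratio without the untreated 12 h library, either 25 µg/ml library at 12 h, replicate 1 at 25 µg/ml and 6 h or the untreated replicate 2 at 6 h (exact permutation, adjusted p of 0.111, 0.0556, 0.0556, 0.0741 and 0.0741), and that of the SREBF1 to SREBF2 ratio without the untreated 12 h or either 25 µg/ml library at 12 h (0.111, 0.0556 and 0.0556). Deviations of same-numbered libraries correlated at -0.18 to 0.03. Those deviations also moved with GC content or gene length in some libraries, and at 6 h the replicate number followed the lane. Whether the replicate numbers pair the samples was not tested in any other way.

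Signs changed in 58 values of 15 effects, none of which passed as reported or under the alternative that changed the sign. Over all times, SREBF1 for 25 against 0 µg/ml was 0.0035 in lane 4, 0.0543 without 6 h and 0.0307 without 12 h libraries (-0.0378 to 0.0307 leaving out each library). For 12.5 against 0 µg/ml, NPC1 was 0.0133 in lane 5 and 0.0553 without 6 h (-0.0358 to 0.0329), SREBF1 was 0.0032 in lane 5 and 0.0016 without 12 h (-0.0523 to 0.0016), SREBF2 was 0.0043 in lane 5, 0.0241 without 6 h, 0.0170 without 12 h and 0.0028 with the block (-0.0324 to 0.0263), and STARD4 was -0.0721 in lane 4 (-0.0086 to 0.0916). For 25 against 12.5 µg/ml, INSIG2 was -0.0274 in lane 4, SCAP was -0.0165 in lane 5 and -0.0120 without 24 h, and SREBF1 was -0.0849 in lane 5 and -0.0643 without 24 h (-0.0049 to 0.0548). At 6 h SCAP was 0.0094 in lane 4 and 0.0383 after the correction with or without the block (-0.0620 to 0.0262), and SREBF2 was -0.0012 in lane 4 (-0.0112 to 0.0305). For the difference between times INSIG2 was 0.0023 in lane 4 and 0.0918 after the correction with or without the block (-0.0539 to 0.0452). For untreated 24 against 6 h, SREBF2 was 0.0047 with median centring, 0.0247 after the correction and 0.0407 with the block as well, STARD4 was -0.0298 in lane 4 (-0.0298 to 0.0882), and leaving out each library took INSIG1 to -0.0178 to 0.0721 and SCAP to -0.0368 to 0.0514.

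The single untreated 12 h library, 2 libraries per other group, lane following time, the absence of read counts and FPKM below 1 for MYLIP limit these values.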
